A study of Mus musculus with 18 samples.

Results

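The lysosome and autophagy genes were examined in whole lungs of mouse embryos at 14.5 days post coitus (dpc). They were chosen by symbol and level. Every symbol that starts with Atp6v, which names the subunits of the vacuolar proton pump (v-ATPase), was joined with 33 listed genes for lysosomal enzymes, lysosomal membrane proteins, autophagy factors and their regulators, provided that the mean normalised read count was at least 50 in each of 3 tables. All 33 listed genes and 15 of 23 Atp6v symbols met this level, which gave 48 genes of 23420. The 8 symbols below the level were Atp6v0a4, Atp6v0c, Atp6v0c-ps2, Atp6v0d2, Atp6v1b1, Atp6v1c2, Atp6v1e2 and Atp6v1g3. Among them Atp6v0c, which encodes the subunit that forms the proton-carrying ring of the pump, had a mean of 1.83 among Rptor, 0.501 among Tfam and 0.334 among Cox10 samples. Near-identical copies of this gene exist, counting can lose or split their reads, and its level is therefore uncertain.

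Each table held a line of mice in which a floxed gene was deleted by Cre under control of Shh, which is active in the lung epithelium and not in the other tissues of the lung. The deficient lungs were Rptorf/f; ShhCre/+, Tfamf/f; ShhCre/+ or Cox10f/f; ShhCre/+, and the littermate controls were Rptorf/+; ShhCre/+, Tfamf/+; ShhCre/+ or Cox10f/+; ShhCre/+. Every lung thus carried the Cre allele, by the labels and the study's methods every control carried 1 floxed copy of the gene that Cre can remove, and mesenchyme, endothelium and blood cells kept the gene. A legend of the study names ShhCre/+ alone as the control, and which of these holds was not settled here. There were 3 samples in each of 6 groups, 18 in all, and a p-value measures the spread between these samples, since the sources do not say how many embryos a sample held. Rptor encodes Raptor, the subunit that brings substrates to mTOR complex 1 (mTORC1). Tfam maintains and transcribes mitochondrial DNA, and Cox10 is needed to build cytochrome c oxidase.

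Lysosomes are acidic organelles in which proteases, glycosidases and lipases digest material delivered by endocytosis and autophagy. mTORC1 is recruited to their surface when amino acids are plentiful. There it phosphorylates TFEB, TFE3 and MITF, the MiT/TFE transcription factors, which keeps them in the cytoplasm, and it phosphorylates ULK1, which holds back autophagy. When mTORC1 is inactive in cultured cells, these factors enter the nucleus and raise the transcription of many lysosomal and autophagy genes through an E-box type motif close to the start sites. The comparison of deficient with control lungs within each line asks whether RNA of these genes was higher without Raptor, and the Tfam and Cox10 lines ask the same of lungs with damaged mitochondria.

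Normalised read counts summed to 27727200 to 29611100 per sample, and the 48 genes held 0.353% to 0.502% of each total. In the whole lungs the deleted genes themselves differed little. Rptor had 2239.6 ± 52 to 2149 ± 254 (SD, n = 3) from control to deficient in its own line (log2 fold change -0.07, SE 0.083, limma adjusted p = 0.57), and neither Tfam (adjusted p = 0.472) nor Cox10 (adjusted p = 0.979) passed the threshold in limma in its line. The RNA therefore does not check the genotype labels. Each of the 10 epithelial markers, among them the lung factor Nkx2-1, reached a mean of 10 in every line. The third Cox10-deficient library stood apart. It had the highest value of its line in 36 of the 48 genes, its summed endothelial markers reached 34990.0 against 21440.5 to 24023.6 in the 5 other libraries of that line, and its macrophage markers 6511 against 4194 to 5200. Its epithelial markers reached 24803, against 15712 and 17385 in the other 2 deficient lungs and 23642 to 24316 in the controls, so it showed no epithelial loss. Xist, which female embryos express, was at 13.8 there, against 40297 and 36743 in the other 2 deficient lungs and 13.1 to 34750 in the controls.

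In Rptor-deficient lungs 20 of the 48 genes were higher and 1 was lower than in controls (limma on log2 values, Benjamini-Hochberg adjusted p below 0.05 over 14940 genes). The 20 genes were 41.7% of the group, while 16.6% of all genes tested were higher and 34.8% changed in either direction. An unadjusted p below 0.05 was found for 23 of the 48 genes and for 45.6% of all genes. The higher genes were 5 of 7 lysosomal proteases, 4 of 7 glycosidases, 4 of 6 autophagy genes, both folliculin complex genes, 2 of 3 lumenal cofactors, 2 of 15 v-ATPase subunits and 1 of 5 membrane proteins. None of the 3 MiT/TFE factors passed the threshold. A positive log2 fold change was seen in 39 of 48 genes, against 51.0% of all genes, and in 26 genes the 3 deficient values all lay above the 3 control values, against 24.3% of all genes. The median log2 fold change was 0.15 over the 48 genes and 0.01 over all genes tested. All changes but those of Ctsf and Ctsd were smaller than 1.5-fold, and the log2 fold changes ran from -0.37 to 1.04. In Tfam-deficient lungs 2 of the 48 genes were higher and none was lower in limma, where 4.66% of all 15053 genes passed, 2.03% higher and 2.63% lower, and 14 of the 48 had an unadjusted p below 0.05, against 17.4% of all genes. In Cox10-deficient lungs none of the 48 genes passed, where 0.141% of all 14937 genes were higher, 0.335% were lower and 11 of the 48 had an unadjusted p below 0.05, against 13.0% of all genes.

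**Figure D1:**
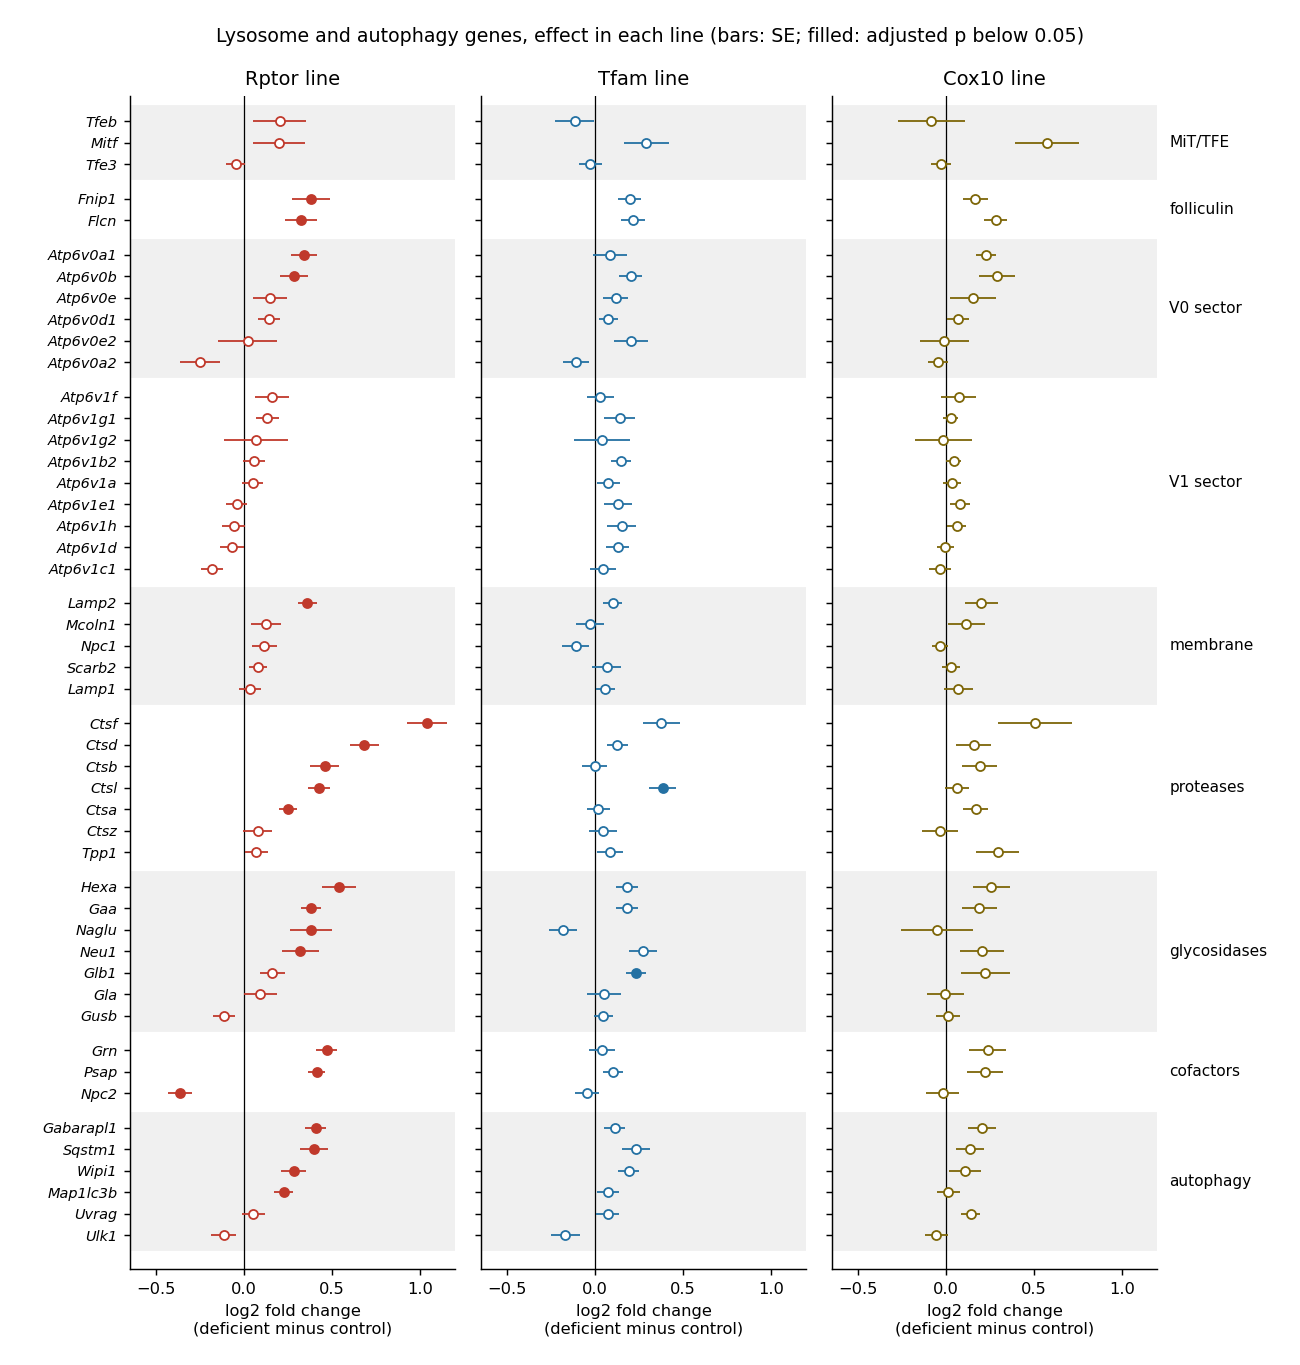
Log2 fold change (deficient minus control, x axis) of each of the 48 genes, 1 panel per line, grouped by role, with bars for the standard error and filled points for limma adjusted p below 0.05 (n = 3 against 3). Filled points are 21 in the Rptor line, 20 of them to the right of 0, 2 for Tfam and 0 for Cox10.

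The cell types of the lung moved in the same comparison. Of the 13 macrophage markers 12 were in the table and all 12 were higher in Rptor-deficient lungs. Their summed level was 5367 to 5693 in the controls and 8194 to 10149 in the deficient lungs, a ratio of means of 1.65. Macrophages digest cell debris and are rich in lysosomes, and none of the 48 genes is in the marker list. Mesenchymal markers were higher for 7 of 9 genes, with sums of 226149 to 258203 and 425431 to 461430, and endothelial markers for 5 of 6 genes, with sums of 30708 to 32481 and 39200.3 to 43911. Epithelial markers were lower for 9 of 10 genes, with sums of 38863 to 45089 and 13889 to 21145. No marker of these 4 lists was at 0 in mean. Their part in the rise of the lysosomal genes was not tested, and in whole lungs fewer cells of a type cannot be told apart from less RNA per cell. For the Tfam line 1 of 12 macrophage markers was higher (sums of 6616 to 7564 and 7853 to 8429) and 4 of 10 epithelial markers were lower. For the Cox10 line none of either list passed the threshold in limma, with 1 macrophage and 7 epithelial markers at an unadjusted p below 0.05, with macrophage sums of 4194 to 5200 and 4766 to 6511.

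**Figure D2:**
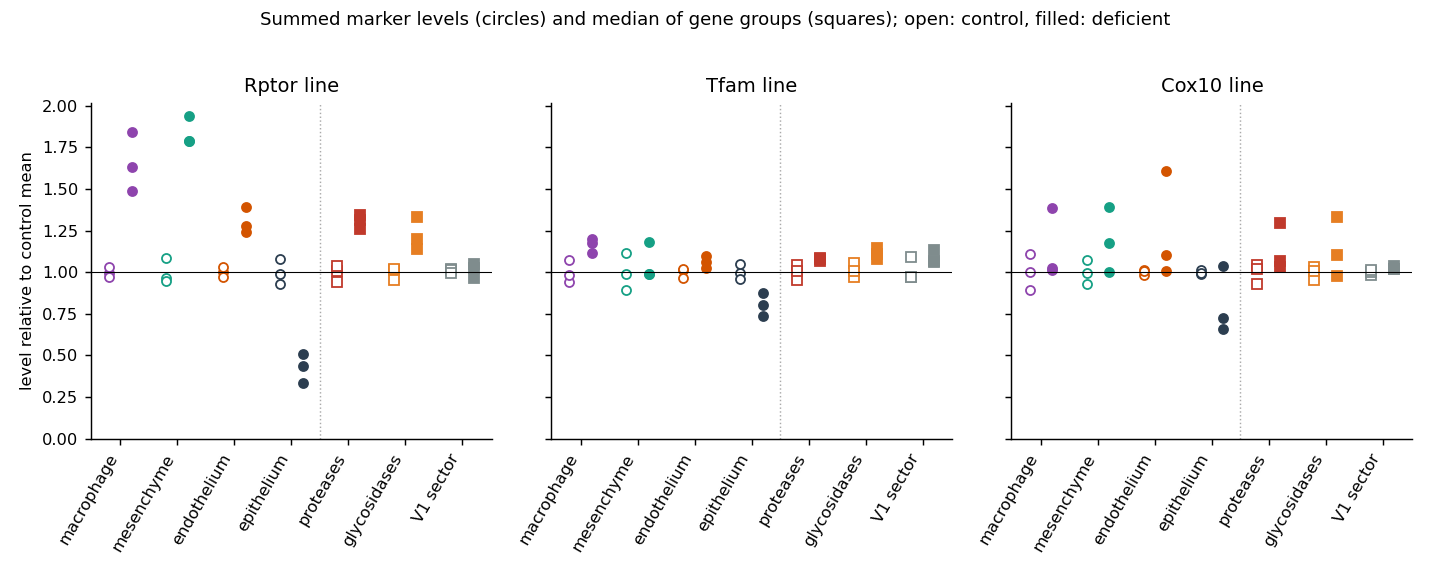
Level in each library relative to the control mean of its line (y axis), for the summed markers of 4 cell types (circles) and the median over the genes of 3 groups (squares), with open symbols for control and filled symbols for deficient lungs. In the Rptor line the macrophage, mesenchyme and endothelium sums and the protease medians of all 3 deficient lungs lie above all 3 controls and the epithelium sums below them, while the medians of the v-ATPase V1 subunits stay near 1.

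The promoters of these genes were searched for the motifs through which MiT/TFE factors are known to act. The RefSeq table (GRCm38.p6) held promoters for 41 of the 48 genes, each from 250 bases before to 50 bases after a start site. The E-box CACGTG, searched on both strands, was present for 15 of the 41 genes (36.6%), for 8.09% of all 27025 genes in that table and for 11.4% of the 10890 genes that were tested in the Rptor line. Its form with a flanking T, TCACGTG, which is contained in the E-box count, was found for 13 genes (31.7%), against 4.29% of all genes and 6.69% of those tested. The M-box TCATGTG was found for 5 genes (12.2%), against 4.31% and 2.66%. Among the 19 matched genes that were higher in Rptor-deficient lungs 8 had an E-box, and among the 22 others 7 had one. A match of letters does not show that a factor binds there. The promoters below were chosen to show E-boxes in genes that rose strongly (Ctsf and Ctsd), in a regulator that rose (Fnip1) and in a gene with a run of motifs that did not pass the threshold (Lamp1). Letters run 5′ to 3′ on the strand of the gene in GRCm38.p6, and capitals mark the E-box with any flanking T of the TCACGTG form on either strand.
Ctsf (chr19:4854915-4855214, plus strand): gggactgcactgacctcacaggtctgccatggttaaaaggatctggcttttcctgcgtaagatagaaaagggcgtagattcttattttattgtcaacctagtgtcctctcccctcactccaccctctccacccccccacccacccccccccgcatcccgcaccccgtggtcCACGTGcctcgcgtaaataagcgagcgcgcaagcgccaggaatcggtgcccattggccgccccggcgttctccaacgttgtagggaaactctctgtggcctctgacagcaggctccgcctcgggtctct
Ctsd (chr7:142387778-142388077, minus strand): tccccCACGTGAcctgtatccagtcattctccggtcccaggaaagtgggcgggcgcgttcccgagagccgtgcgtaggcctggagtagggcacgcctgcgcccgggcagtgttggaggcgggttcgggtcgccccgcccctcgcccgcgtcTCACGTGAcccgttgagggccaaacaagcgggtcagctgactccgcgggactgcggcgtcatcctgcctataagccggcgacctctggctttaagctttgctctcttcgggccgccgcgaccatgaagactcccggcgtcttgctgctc
Fnip1 (chr11:54437929-54438228, plus strand): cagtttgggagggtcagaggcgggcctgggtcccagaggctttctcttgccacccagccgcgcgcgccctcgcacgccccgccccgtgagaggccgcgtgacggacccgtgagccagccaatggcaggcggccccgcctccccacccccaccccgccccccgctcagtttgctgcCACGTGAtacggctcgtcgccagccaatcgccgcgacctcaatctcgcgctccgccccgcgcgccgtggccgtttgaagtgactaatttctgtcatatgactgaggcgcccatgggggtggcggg
Lamp1 (chr8:13158911-13159210, plus strand): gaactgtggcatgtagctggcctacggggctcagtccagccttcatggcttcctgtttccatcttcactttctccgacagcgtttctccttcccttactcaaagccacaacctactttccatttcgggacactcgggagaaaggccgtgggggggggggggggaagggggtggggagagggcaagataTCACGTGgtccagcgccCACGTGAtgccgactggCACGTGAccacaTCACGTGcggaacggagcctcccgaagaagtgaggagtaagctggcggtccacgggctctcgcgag
The E-box of Ctsf begins at -79 from the start site and lacks the flanking T on both sides. Ctsd has E-boxes at -245 and -98, and Fnip1 has a single one at -75. Lamp1 carries 4 of them, at -61, -45, -28 and -15, the most of any of the 41 genes.

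**Figure D3:**
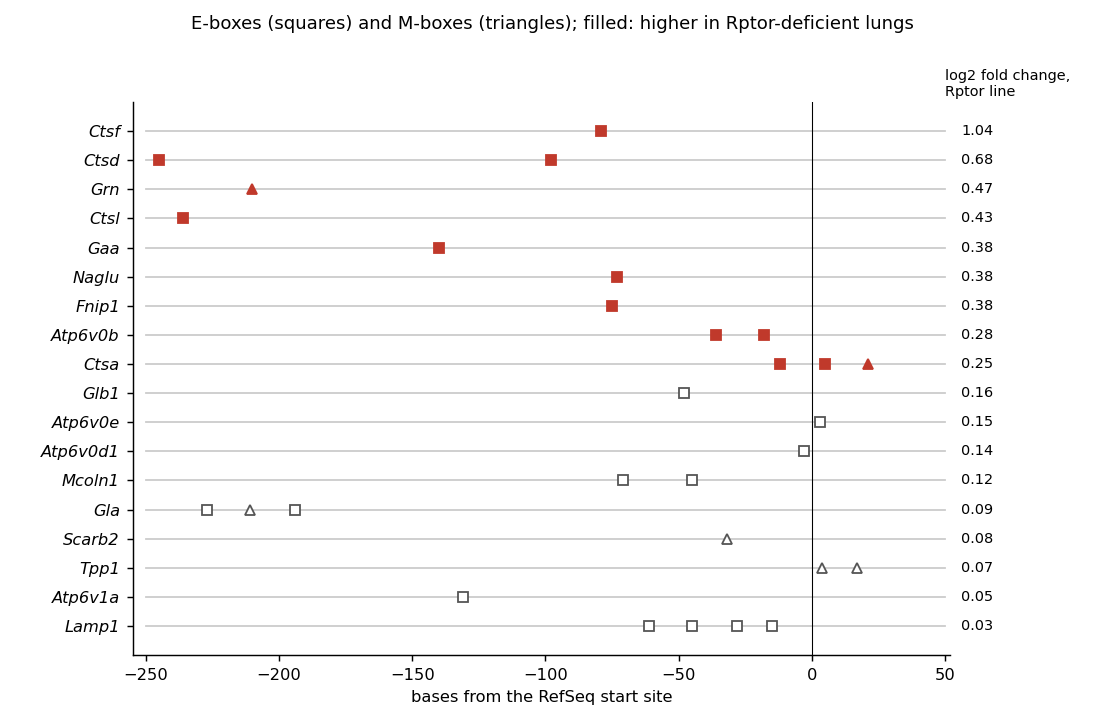
Position of E-boxes (squares) and M-boxes (triangles) in bases from the RefSeq start site (x axis) for the 18 genes that hold either motif, ordered by log2 fold change in the Rptor line, which is printed at the right. Filled symbols mark genes higher in Rptor-deficient lungs, which are 9 of the 18, and the gene with the most E-boxes, Lamp1, stands at the bottom with 0.03.

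The MiT/TFE factors themselves did not pass the threshold in any line. Per kilobase of exon, their control levels in the Rptor line were 29.6 for Tfeb, 18.3 for Mitf and 174 for Tfe3. Tfeb, the factor for which the response is best known, had 153, 165 and 186 in the control and 161, 218 and 204 in the deficient lungs of the Rptor line. The groups overlapped, and the difference did not pass the threshold (log2 fold change 0.20, SE 0.15, limma adjusted p = 0.325). Mitf, which also directs pigment cell development, had 133, 101 and 106 in the control and 129.5, 124 and 134 in the deficient lungs (log2 fold change 0.20, SE 0.15, limma adjusted p = 0.335), again with overlap. Tfe3 had 1616, 1588 and 1621 in the control and 1513, 1574 and 1578 in the deficient lungs, so that the deficient values lay below the controls by a small margin (log2 fold change -0.05, SE 0.054, limma adjusted p = 0.516). In Tfam lungs Tfeb had 263, 331 and 311 in the control and 297, 255 and 281 in the deficient lungs (log2 fold change -0.12, SE 0.11, limma adjusted p = 0.643), with overlap. Tfe3 had 2237, 2273 and 2067 in the control and 2299.6, 2140.2 and 2017 in the deficient lungs (log2 fold change -0.03, SE 0.067, limma adjusted p = 0.876) and Mitf 118, 118 and 103 in the control and 154, 133 and 129 in the deficient lungs (log2 fold change 0.29, SE 0.13, limma adjusted p = 0.276). Only Mitf was separated there, by a narrow gap. In the Cox10 line Tfeb had 161, 131 and 181 in the control and 156, 117 and 176 in the deficient lungs (log2 fold change -0.08, SE 0.19, limma adjusted p = 0.861) and Tfe3 1568, 1435 and 1522 in the control and 1496, 1421 and 1521 in the deficient lungs (log2 fold change -0.03, SE 0.056, limma adjusted p = 0.846). Mitf had 89.3, 60.5 and 84.9 in the control and 108, 113 and 127 in the deficient lungs of that line, which was the largest log2 fold change of the 48 genes in Cox10 lungs at 0.57 (SE 0.18). All 3 deficient values exceeded the controls, yet at these counts it did not pass the threshold in limma (adjusted p = 0.286). The activity of these factors is set by their location in the cell, which RNA does not measure.

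Flcn and Fnip1 encode folliculin and its partner, which act on the Rag GTPases and are needed for the phosphorylation of TFEB by mTORC1. Both are also known targets of TFEB. Flcn had 1086, 944 and 1055 in the control and 1438, 1190.3 and 1239 in the deficient lungs of the Rptor line, without overlap (log2 fold change 0.32, SE 0.09, limma adjusted p = 0.0242). Fnip1 had 1033, 1034 and 1019 in the control and 1615, 1218 and 1218 in the deficient lungs (log2 fold change 0.38, SE 0.11, limma adjusted p = 0.0264), where the first deficient lung stood well above the other two. Each call was lost without single libraries, that of Flcn without the second control (adjusted p = 0.088) or the third (adjusted p = 0.0543), and that of Fnip1 when any of the 3 controls was left out (adjusted p = 0.0675 to 0.0751) or the level of Xist was a covariate (adjusted p = 0.0598). In Tfam lungs Flcn had 748, 796 and 844 in the control and 896, 951 and 924 in the deficient lungs (log2 fold change 0.22, SE 0.07, limma adjusted p = 0.126). Fnip1 had 964, 914 and 891 in the control and 1007, 1046 and 1119 in the deficient lungs (log2 fold change 0.20, SE 0.068, limma adjusted p = 0.154). Neither passed the threshold, although in both genes every deficient value exceeded every control value. In Cox10 lungs Flcn had 1097, 964 and 980.4 in the control and 1202, 1248 and 1243 in the deficient lungs (log2 fold change 0.28, SE 0.065, limma adjusted p = 0.148), without overlap. Fnip1 had 1040.2, 1129 and 1020.4 in the control and 1191, 1274 and 1114 in the deficient lungs (log2 fold change 0.17, SE 0.07, limma adjusted p = 0.377), with overlap. Flcn was thus above its controls in 9 of 9 deficient lungs of the 3 lines, with differences of 25.1%, 16.1% and 21.6%. This was not particular to Flcn, since Atp6v0b, Lamp2, Hexa, Psap and Gabarapl1 were also above all controls in each line. Of all genes, 24.3% were so in the Rptor, 10.9% in the Tfam and 10.6% in the Cox10 line. The differences of Flcn between lines did not pass the threshold (Rptor minus Tfam 0.11, 95% interval -0.12 to 0.34, and Rptor minus Cox10 0.04, 95% interval -0.19 to 0.27).

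The v-ATPase, which acidifies the lysosome, consists of a membrane sector, V0, and a cytosolic sector that splits ATP, V1. Of 6 V0 genes 2 were higher in Rptor-deficient lungs, and of 9 V1 genes none was higher or lower in limma, with 1 at an unadjusted p below 0.05. The 2 genes were 13.3% of the 15 subunits, below the 16.6% of all genes that were higher, and 0 were lower, where 18.2% of all genes were. The median log2 fold change of the 15 subunits was 0.05. Atp6v0a1, a subunit of the proton channel, had 1896, 1805 and 1865 in the control and 2604, 2236 and 2223 in the deficient lungs (log2 fold change 0.34, SE 0.072, limma adjusted p = 0.0079). Atp6v0b had 1154, 987 and 1137 in the control and 1355, 1248 and 1385 in the deficient lungs (log2 fold change 0.28, SE 0.081, limma adjusted p = 0.0255), and this call was lost without the second control or the third deficient lung (adjusted p = 0.0795 and 0.0758). Both genes were above their controls in every deficient lung. At the other end lay Atp6v0a2, an isoform of the Golgi and endosomes, with 923, 1047 and 1040.4 in the control and 699.6, 921 and 924 in the deficient lungs (log2 fold change -0.25, SE 0.12, limma adjusted p = 0.124), and Atp6v1c1 with 1019, 1011 and 1007 in the control and 868, 882 and 927 in the deficient lungs (log2 fold change -0.18, SE 0.063, limma adjusted p = 0.0526). Neither passed the threshold here. Atp6v0a2 was lower with the replicate number as a block (adjusted p = 0.0337), and Atp6v1c1 with TMM scaling. In the Tfam line 14 of the 15 subunits were on the positive side, against 50.3% of all genes, with a median of 0.12. None passed the threshold in limma, where 4.66% of all genes did, and 2 had an unadjusted p below 0.05, against 17.4% of all genes. The corresponding count for Cox10 was 10 of 15, against 50.4% of all genes, with a median of 0.04. None passed, where 0.475% of all genes did, and again 2 had an unadjusted p below 0.05, against 13.0% of all genes. The low-level Atp6v1c2, a V1 isoform of the lung and kidney that fell below the required mean, had 30.9, 34 and 17.9 in the control and 4.08, 4.95 and 2.96 in the deficient lungs of the Rptor line (log2 fold change -2.49, SE 0.36, limma adjusted p = 0.00143), with no overlap. It is named here after its values were seen. In Tfam and Cox10 lungs its log2 fold changes were 0.04 and -0.13 (limma adjusted p = 0.972 and 0.862). It is itself 1 of 9 listed markers of ionocytes and acid-secreting cells, of which Cftr, a chloride channel, was lower in all 3 lines, with -2.59 for Rptor, -0.73 for Tfam and -0.99 for Cox10 (limma adjusted p = 5.94e-05, 0.00132 and 0.0293). Of these 9 markers 6 had a mean below 10 in the Rptor line, among them the ionocyte factors Foxi1 and Ascl3, and Foxi2 was at 0 in every Rptor sample. The other marker tested there, Atp6v0a4, did not pass (log2 fold change -0.32, SE 0.31, limma adjusted p = 0.451), with overlap. The part of such cells in the fall of Atp6v1c2 was not tested.

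Lysosomal membrane proteins moved unevenly. Lamp1 and Lamp2 are the most abundant glycoproteins of the lysosomal membrane. Lamp2 had 5876, 6012 and 5784 in the control and 7204, 7512 and 7957 in the deficient lungs (log2 fold change 0.36, SE 0.054, limma adjusted p = 0.00165), and each deficient lung lay above each control. Lamp1, in contrast, had 6999.8, 7149 and 7391 in the control and 6809, 7516 and 7758 in the deficient lungs of the same samples (log2 fold change 0.03, SE 0.061, limma adjusted p = 0.696), with overlap, and its 95% interval of -0.10 to 0.17 does not reach the estimate of Lamp2. The Tfam lungs had 9282, 9317 and 9321 in the control and 10191, 9494 and 9409.5 in the deficient lungs (log2 fold change 0.06, SE 0.056, limma adjusted p = 0.651), separated by a narrow gap. The Cox10 lungs had 6461, 6377 and 6574 in the control and 6285, 6373 and 7817 in the deficient lungs (log2 fold change 0.07, SE 0.083, limma adjusted p = 0.726), where only the third deficient lung was high. Mcoln1, the calcium channel of the lysosome and a textbook target of TFEB, had 721, 670.4 and 700.3 in the control and 840.3, 722 and 722 in the deficient lungs of the Rptor line. Its values did not overlap, but the difference was small and did not pass (log2 fold change 0.12, SE 0.084, limma adjusted p = 0.285). For Mcoln1 the Tfam lungs had 946, 984 and 844 in the control and 965, 914 and 838 in the deficient lungs (log2 fold change -0.03, SE 0.081, limma adjusted p = 0.891). The Cox10 lungs had 686, 757 and 752 in the control and 682, 806 and 902 in the deficient lungs (log2 fold change 0.11, SE 0.11, limma adjusted p = 0.649), and the groups overlapped in both lines. The cholesterol transporter Npc1 and the receptor Scarb2, which carries glucocerebrosidase to lysosomes, did not pass in Rptor lungs, with log2 fold changes of 0.11 for Npc1 and 0.08 for Scarb2 (adjusted p = 0.252 and 0.285, limma).

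Proteases showed the largest rises. Ctsf, which encodes the cysteine protease cathepsin F (chr19:4855130-4860918, plus strand in GRCm38), had 302, 269.7 and 303 in the control and 636, 516 and 658 in the deficient lungs of the Rptor line. It rose by 106%, from 292 ± 19.1 to 603 ± 76.6 (SD, n = 3), the largest change among the 48 genes (log2 fold change 1.04, SE 0.11, limma adjusted p = 0.000447). Ctsd, the aspartic protease cathepsin D (chr7:142375911-142388038, minus strand), had 5859.9, 5719 and 6306 in the control and 9105, 8843 and 10863 in the deficient lungs. The lowest deficient lung exceeded the highest control by a wide margin, and the rise was 60.5% (log2 fold change 0.68, SE 0.082, limma adjusted p = 0.000632). Ctsb, a cysteine protease found in most tissues, had 9839, 8664 and 9113 in the control and 12259.5, 11564 and 14200.0 in the deficient lungs (log2 fold change 0.46, SE 0.083, limma adjusted p = 0.00391). Ctsl, another cysteine protease, had 3041, 2796 and 3245 in the control and 3977, 4148 and 4058 in the deficient lungs (log2 fold change 0.43, SE 0.064, limma adjusted p = 0.00162). Ctsa, which protects other lysosomal enzymes in a complex with the sialidase Neu1, had 2619.8, 2732 and 2773 in the control and 3166, 3198 and 3301 in the deficient lungs (log2 fold change 0.25, SE 0.051, limma adjusted p = 0.00668). In none of these 5 genes did the groups overlap, and each call held without any single library. Ctsz and Tpp1, which trim the ends of peptides, had log2 fold changes of 0.08 (adjusted p = 0.491) and 0.07 (adjusted p = 0.452) in limma, with overlap. Per kilobase of exon, control levels in the Rptor line were 2536 for Ctsd and 57.9 for Ctsf, the former far more abundant than the latter.

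**Figure D4:**
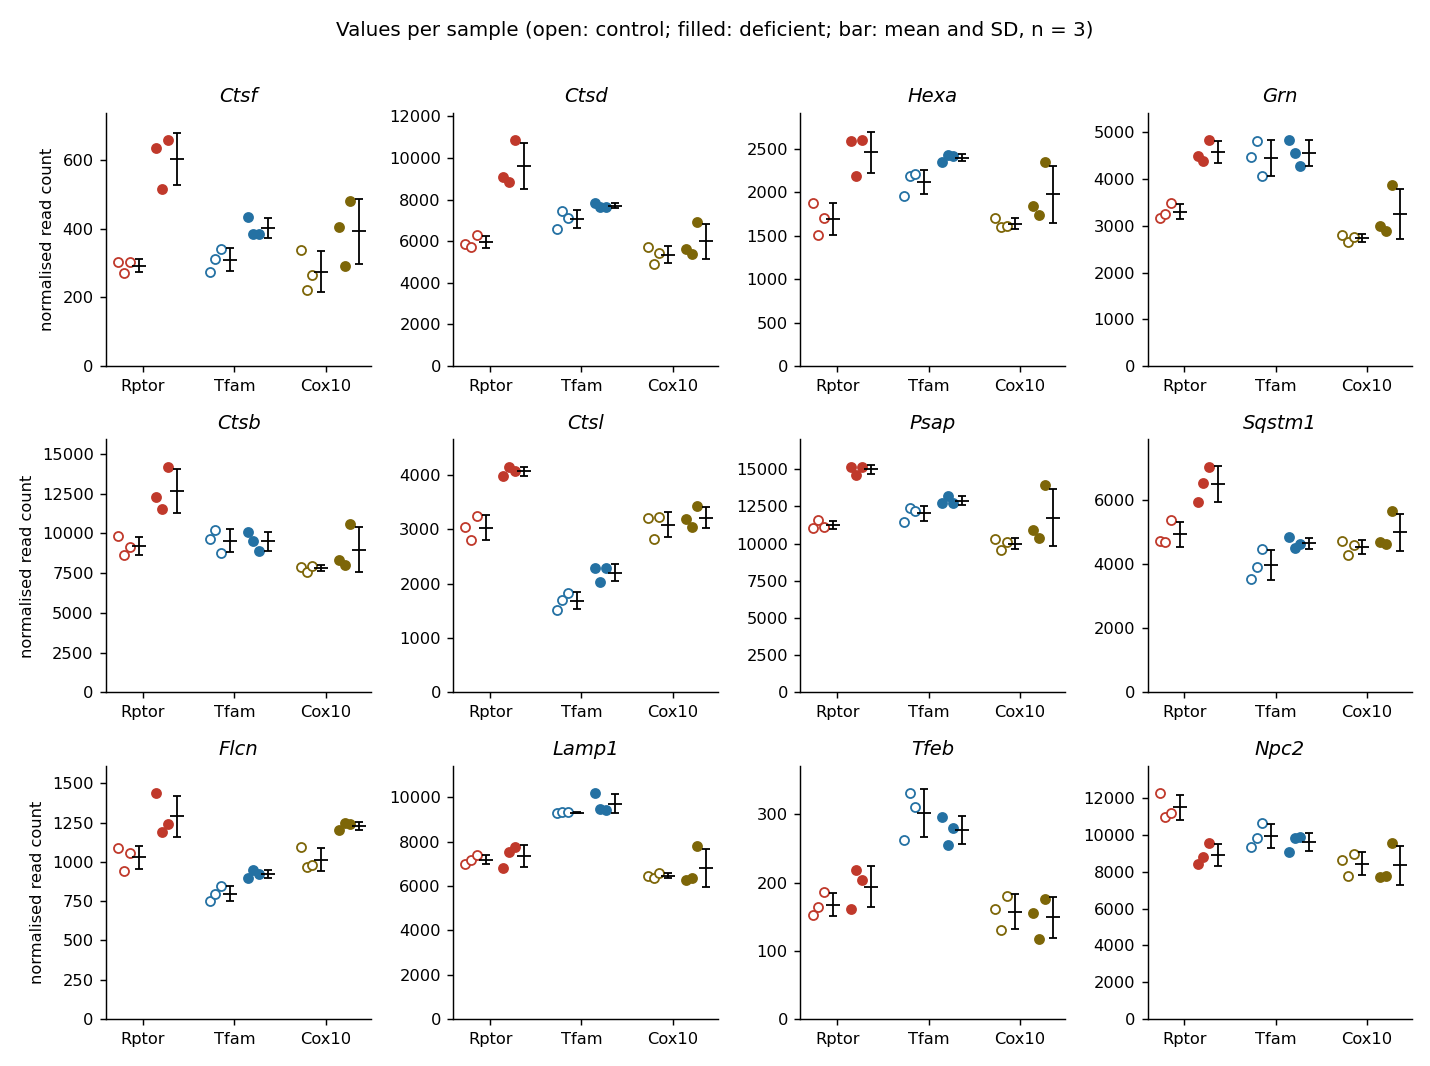
Normalised read count (y axis, from 0) of 12 genes in each of the 18 samples, with open points for control and filled points for deficient lungs and a bar for mean and SD (n = 3). For Ctsf and Ctsd the Rptor-deficient lungs lie above every control of that line, for Npc2 below, and for Lamp1 and Tfeb the groups of that line overlap.

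Glycosidases remove sugars from glycoproteins and glycolipids. Hexa, a subunit of the hexosaminidase lost in Tay-Sachs disease, had 1873, 1509.6 and 1699.9 in the control and 2592, 2190.5 and 2599.9 in the deficient lungs of the Rptor line and rose by 45.3% (log2 fold change 0.54, SE 0.097, limma adjusted p = 0.00368). Gaa, which breaks down lysosomal glycogen, had 3656, 3476 and 3677 in the control and 4800.0, 4399 and 4893 in the deficient lungs (log2 fold change 0.38, SE 0.058, limma adjusted p = 0.0018). Deficient and control values were fully separated in both genes. Naglu, an enzyme of heparan sulphate breakdown, had 489, 372 and 407 in the control and 576, 490.2 and 577 in the deficient lungs (log2 fold change 0.38, SE 0.12, limma adjusted p = 0.0398). Neu1 had 439, 413 and 444 in the control and 617, 492 and 515 in the deficient lungs (log2 fold change 0.32, SE 0.1, limma adjusted p = 0.0417). These calls were weak. Naglu passed in only 2 of the 6 fits that each left out a library (it was lost without the second control, the third control, the first deficient or the third deficient lung, with adjusted p up to 0.134), and Neu1 in 1 of 6, without the second deficient lung (otherwise adjusted p up to 0.125). Both calls were also lost when no filter on low values was used (adjusted p = 0.0504 for Naglu and 0.0517 for Neu1). Glb1, Gla and Gusb had log2 fold changes of 0.16, 0.09 and -0.12 and did not pass the threshold in limma (adjusted p = 0.11, 0.48 and 0.187).

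The lumenal cofactors split. Psap encodes the precursor of the saposins, which present lipids to lysosomal enzymes, and had the highest control level per kilobase of exon among the 48 genes (4104 in the Rptor line, against 2684 for Lamp1, the next). It had 11082, 11569 and 11134 in the control and 15183, 14607 and 15179 in the deficient lungs (log2 fold change 0.41, SE 0.049, limma adjusted p = 0.000568). Grn encodes progranulin, a secreted protein that is cut into granulins in lysosomes, and had 3158, 3263 and 3482 in the control and 4499, 4387 and 4835 in the deficient lungs (log2 fold change 0.47, SE 0.061, limma adjusted p = 0.000849). Every deficient lung exceeded every control in both genes, and both calls held without any single library. Npc2, which hands cholesterol to NPC1 in the lysosome, went the other way. It had 12277, 10998 and 11211 in the control and 8404, 8807 and 9551 in the deficient lungs and fell from 11495 ± 686 to 8920.3 ± 582 (SD, n = 3), again without overlap (log2 fold change -0.37, SE 0.067, limma adjusted p = 0.00394). Npc2 was the only one of the 48 genes that was lower, where 18.2% of all genes tested were lower. With the replicate number as a block, 2 genes were lower, Npc2 and Atp6v0a2. The epithelial markers were lower in the same lungs, as given above, and their part in the fall was not tested.

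Autophagy genes rose in part. Sqstm1, the receptor p62 that links cargo to autophagosomes, had 4703, 4691 and 5373 in the control and 5928, 6504 and 7029.8 in the deficient lungs of the Rptor line (log2 fold change 0.40, SE 0.079, limma adjusted p = 0.00593). Gabarapl1, a protein of the ATG8 family that coats autophagosomes, had 1792, 1973 and 1951 in the control and 2528, 2553 and 2488 in the deficient lungs (log2 fold change 0.41, SE 0.058, limma adjusted p = 0.00133). Map1lc3b, which encodes the ATG8 protein LC3B, had 2413, 2469 and 2463 in the control and 2722, 2921 and 2948 in the deficient lungs (log2 fold change 0.23, SE 0.054, limma adjusted p = 0.0131). Wipi1, a lipid-binding protein of the forming autophagosome, had 891, 1006 and 1007 in the control and 1209, 1161 and 1155 in the deficient lungs (log2 fold change 0.28, SE 0.072, limma adjusted p = 0.0168). In these 4 genes the groups did not overlap, and the calls of Map1lc3b and Wipi1 were lost without the first control (adjusted p = 0.051 and 0.0615). Ulk1, the kinase that starts autophagy and is held back by mTORC1, had 2394, 2461 and 2609 in the control and 2092, 2445 and 2359.8 in the deficient lungs, with overlap, and did not pass (log2 fold change -0.12, SE 0.072, limma adjusted p = 0.238). Uvrag, which acts on autophagosome maturation, had a log2 fold change of 0.05 (adjusted p = 0.576, limma). For Sqstm1 the Tfam lungs had 3535, 3912 and 4450.3 in the control and 4828, 4482 and 4609.9 in the deficient lungs (log2 fold change 0.23, SE 0.079, limma adjusted p = 0.147), a separation that passed the threshold without the third control (adjusted p = 0.0153). Map1lc3b had 2529.7, 2469.8 and 2692 in the control and 2861, 2557 and 2659.8 in the deficient lungs (log2 fold change 0.07, SE 0.063, limma adjusted p = 0.622) and Ulk1 4277, 4279 and 3714 in the control and 3826, 3869 and 3222 in the deficient lungs (log2 fold change -0.17, SE 0.083, limma adjusted p = 0.326), both with overlap. In the Cox10 line Sqstm1 had 4708, 4275 and 4576 in the control and 4674, 4633 and 5639 in the deficient lungs (log2 fold change 0.14, SE 0.082, limma adjusted p = 0.505). Map1lc3b had 2364, 2309 and 2512 in the control and 2390.1, 2259 and 2609 in the deficient lungs (log2 fold change 0.01, SE 0.065, limma adjusted p = 0.944) and Ulk1 2734, 2998 and 2868 in the control and 2924, 2816 and 2542 in the deficient lungs (log2 fold change -0.06, SE 0.065, limma adjusted p = 0.719). The groups overlapped for all 3 genes there.

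The 2 genes that were higher in Tfam-deficient lungs were Ctsl and Glb1. Ctsl had 1522, 1706 and 1833 in the control and 2293, 2020.1 and 2281 in the deficient lungs and rose by 30.4% (log2 fold change 0.38, SE 0.079, limma adjusted p = 0.0202). Glb1, the lysosomal beta-galactosidase, had 1314, 1373 and 1356 in the control and 1591, 1554 and 1613 in the deficient lungs (log2 fold change 0.23, SE 0.056, limma adjusted p = 0.0407). Both were separated from their controls, but Ctsl passed in 3 of 6 fits that left out a library and Glb1 in 1 of 6. The number of genes called depended on single libraries. It was 0 without the first control, the first deficient or the third deficient lung, 1 (Ctsl) without the second control or the second deficient lung, and 6 without the third control (Atp6v0b, Ctsf, Ctsl, Glb1, Flcn and Sqstm1), where 3.43% of all genes were higher. A positive log2 fold change was found in 39 of the 48 genes, against 50.3% of all genes, and 21 genes had all deficient values above all controls, against 10.9% of all genes. The median was 0.08, against 0.00 over all genes. Ctsf had 274, 311 and 342 in the control and 435, 384 and 384 in the deficient lungs (log2 fold change 0.38, SE 0.1, limma adjusted p = 0.07) and did not pass.

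In Cox10-deficient lungs 35 of the 48 genes had a positive log2 fold change, against 50.4% of all genes, and 15 had no overlap with the controls, all of them above, against 10.6% of all genes. The median was 0.08. Without the third deficient library, which had the highest value in 36 genes, it was 0.03, and no gene passed in any of the 6 fits that left out a library. Ctsd shows the pattern, with 5709, 4920.2 and 5431 in the control and 5637, 5388 and 6939 in the deficient lungs (log2 fold change 0.16, SE 0.1, limma adjusted p = 0.526). Ctsl had 3205, 2823 and 3220.0 in the control and 3186, 3031 and 3419 in the deficient lungs (log2 fold change 0.06, SE 0.07, limma adjusted p = 0.718). Only the third deficient lung lay above all controls in both genes. Ctsf had 338, 222 and 264 in the control and 404, 293 and 479 in the deficient lungs (log2 fold change 0.50, SE 0.21, limma adjusted p = 0.37), with overlap.

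Whether the lines differed was tested on the effects themselves, in 1 model of all 18 samples over 14550 genes. The effect was larger in the Rptor than in the Tfam line for 3 of the 48 genes, Ctsd, Ctsb and Grn, where 4.82% of all genes had a larger and 6.35% a smaller effect. For Ctsd the difference of log2 fold changes was 0.56 (SE 0.13, limma adjusted p = 0.0106). In Tfam lungs this gene had 6605, 7468 and 7129 in the control and 7849, 7638 and 7624 in the deficient lungs, all deficient values above the controls by a small margin. For Ctsb the difference was 0.46 (SE 0.13, limma adjusted p = 0.0362), with 9622, 10203 and 8769.5 in the control and 10113, 9505 and 8892 in the deficient lungs of the Tfam line. For Grn it was 0.43 (SE 0.13, limma adjusted p = 0.0368), with 4470.2, 4819 and 4062 in the control and 4833, 4566 and 4283 in the deficient lungs of that line. The Tfam groups overlapped for Ctsb and Grn. Between the Rptor and Cox10 lines 2 of 48 effects differed, where 7.48% of all genes differed, 3.27% with a larger and 4.21% with a smaller effect: Ctsd (0.53, SE 0.13, limma adjusted p = 0.0165) and Ctsl (0.37, SE 0.11, limma adjusted p = 0.0496). Between the Tfam and Cox10 lines 0 of 48 effects passed in limma, 1 had an unadjusted p below 0.05, and 0.0550% of all genes passed, 0.0481% with a larger effect in the Tfam and 0.00687% in the Cox10 line. For most genes the difference was not resolved. Ctsf had the largest estimates, 0.66 against Tfam (95% interval 0.17 to 1.15, limma adjusted p = 0.0741) and 0.54 against Cox10 (95% interval 0.04 to 1.03, limma adjusted p = 0.176). With the replicate number as a block, the Ctsf difference against Tfam passed the threshold.

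These counts moved with single libraries. For Rptor against Tfam the count was 9 without the third Tfam control, where 15.5% of all genes passed in either direction. By the estimates from all samples, Atp6v0a1, Ctsb, Ctsd, Npc1 and Grn of these had a larger effect in the Rptor line. Atp6v1c1, Atp6v1e1, Atp6v1h and Npc2 had a smaller one. The count was 1 without any of the second Rptor control, the third Rptor-deficient lung, the first Tfam control, the second Tfam control, the second Tfam-deficient or the third Tfam-deficient lung. For Rptor against Cox10 it was 11 without the third Cox10-deficient lung (Lamp2, Ctsb, Ctsd, Ctsf, Ctsl, Hexa, Naglu, Psap, Grn, Map1lc3b and Gabarapl1), where 12.5% of all genes passed. It was 0 without the first Cox10 control and 1 without any of 8 other libraries, namely the first and second Rptor controls, all 3 Rptor-deficient lungs, the third Cox10 control and the other two Cox10-deficient lungs. Ctsd against Tfam passed in every fit that left out a library, and Ctsd against Cox10 in all but that without the first Cox10 control (adjusted p = 0.0534).

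**Figure D5:**
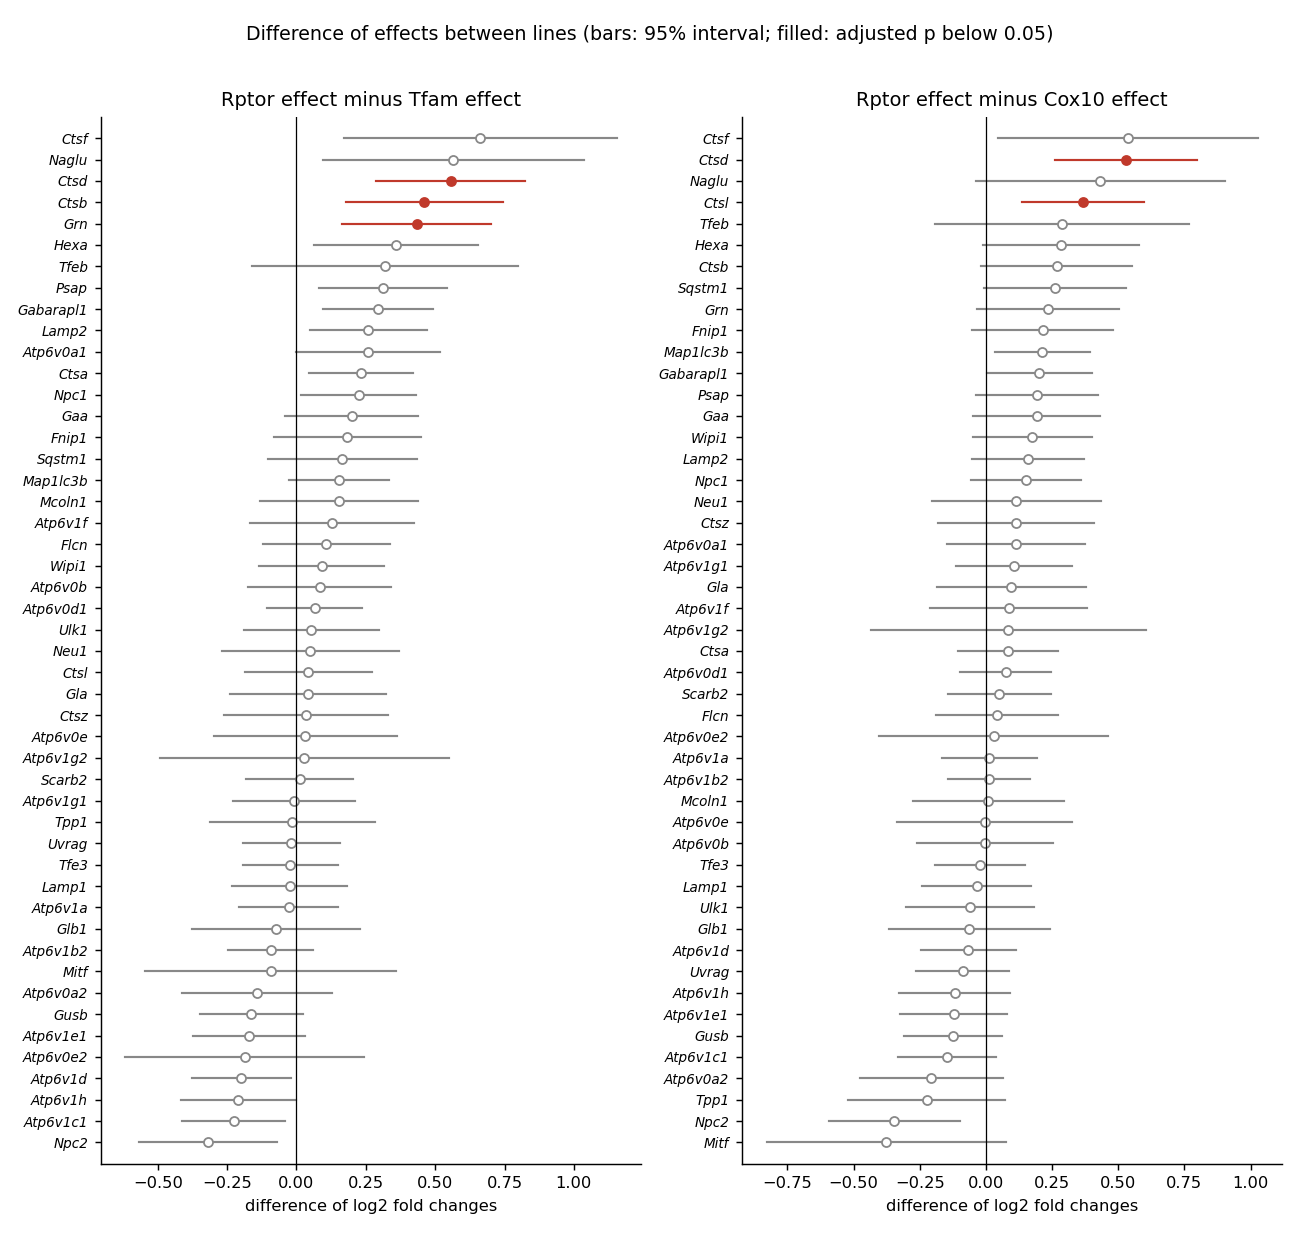
Difference of log2 fold changes between lines (x axis) for each of the 48 genes, Rptor minus Tfam on the left and Rptor minus Cox10 on the right, with bars for the 95% interval and filled points for limma adjusted p below 0.05. Filled points are Ctsd, Ctsb and Grn on the left and Ctsd and Ctsl on the right, and most intervals include 0.

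Other genes of the same pathway, taken from lists and not from the rule above, were examined in the same fits. Of 30 further lysosomal hydrolases and cofactors 21 were higher in Rptor-deficient lungs and 1 was lower, which is 70.0% and 3.33%, against 16.6% and 18.2% of all genes, with a median log2 fold change of 0.32. The largest rises were Ctss, a cathepsin of antigen-presenting cells, with 207, 237 and 232 in the control and 349.8, 404 and 522 in the deficient lungs (log2 fold change 0.90, SE 0.15, limma adjusted p = 0.0027), Ctsk, a collagen-degrading cathepsin (log2 fold change 0.77, SE 0.21, limma adjusted p = 0.0224), and the lysosomal lipase Lipa (log2 fold change 0.65, SE 0.077, limma adjusted p = 0.000565). Ctsc, a cathepsin that activates proteases of immune cells, was the lower one, with 1445, 1575 and 1371 in the control and 908, 1178 and 1212 in the deficient lungs (log2 fold change -0.42, SE 0.11, limma adjusted p = 0.0208). Of 18 further membrane and transport genes 5 were higher (27.8%), led by Cln3 (0.48) and the cystine transporter Ctns (0.41), and 2 were lower (11.1%). One of these was Lamp3, a lysosomal protein of type 2 cells and dendritic cells, with 167, 213 and 157 in the control and 15.3, 33.7 and 54.3 in the deficient lungs (log2 fold change -2.50, SE 0.39, limma adjusted p = 0.00199). Of 35 further autophagy genes tested 6 were higher, a share of 17.1% that lies near the 16.6% of all genes. The largest log2 fold changes were those of the receptor Calcoco1 (0.74) and of Tecpr1 (0.56), which joins autophagosomes to lysosomes, and 1 gene was lower, Atg5 (-0.29).

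Few genes of the remaining lists passed. Of 12 mannose 6-phosphate and sorting genes 1 was higher (Vps41, 0.19) and 1 lower (Gnptab, -0.25), and of 9 v-ATPase accessory and assembly genes none passed in limma, with 2 at an unadjusted p below 0.05. Of 13 Rag GTPase and Ragulator genes 1 passed. This was Rragd, the Rag GTPase that is itself a known target of the MiT/TFE factors, and it was lower, with 211, 223 and 197 in the control and 160.1, 176 and 153 in the deficient lungs (log2 fold change -0.37, SE 0.12, limma adjusted p = 0.0419). Of 7 further genes known to be induced by MiT/TFE factors 1 was higher (Ctss) and 1 lower (Rragd). Gpnmb, a marked target of these factors in macrophages, had 19.9, 13 and 13.9 in the control and 47.9, 9.9 and 10.9 in the deficient lungs (log2 fold change 0.18, SE 0.55, limma adjusted p = 0.827), with a single high deficient lung. Over all 120 further pathway genes tested, 33 were higher and 6 lower in the Rptor line, which is 27.5% and 5.0%, against 16.6% and 18.2% of all genes, with a median log2 fold change of 0.10. Among Tfam lungs 4 of 120 were higher (Ctsc, Lamp3, Slc17a5 and Tecpr1) and none was lower, a share of 3.33% against 2.03% of all genes. Among Cox10 lungs 0 of 121 passed in limma, with 15 at an unadjusted p below 0.05, where 0.475% of all genes passed the adjusted threshold.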

How the data were processed

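RNA-seq was made from whole lungs at 14.5 dpc, 3 samples in each of 6 groups, grouped by sample titles. The submitters' processing notes name Trim Galore, HISAT2, featureCounts, DESeq2 and the build mm10, without versions. The authors deposited a normalised signal, the read count of a gene over a sample's size factor (100% of values were whole multiples, within 0.05 of a step, of steps of 0.978 to 1.02). Depth is thus known but counting error is not modelled. They also deposited fold changes and p-values, which were not used. Values were analysed as log2(value + 1), which understates changes of low genes. Genes that reached 10 in 3 or more of a line's 6 samples were fitted in limma 3.58.1 (R 4.3.3; lmFit, then eBayes with a trend), with Benjamini-Hochberg adjustment over all genes and a threshold of 0.05, two-sided. Differences between lines were contrasts in a model of 6 groups. The fits were tested on simulated data. Genes given with values in every sample were 12 fixed genes (the regulators and core lysosomal and autophagy genes), the 10 largest changes past the threshold in each line and those that differed between lines; the other genes were added after their values were seen. The members and lists were chosen with earlier results of these data known, and no test over a list was made. Replicates were no duplicates (chi-square per gene 4.11 to 31.8). The study states no pairing of samples. In the Rptor line each control correlated most with the deficient sample of its number (correlations of deviations 0.221, 0.330 and 0.259), which does not establish pairs. In the Tfam (-0.312, -0.207 and 0.151) and Cox10 lines (0.447, 0.202 and 0.0488) this did not hold for every number. Per-kilobase levels used exon lengths of GENCODE vM21 (GRCm38). Alternatives were other scalings, filters, pseudocounts, the block, all samples together, Xist as covariate and leaving out each library.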

Additional observations from a re-analysis of the deposited data

Results flagged for a closer look

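The effects of the same deletion design differed between lines for 5 pairs of gene and line among the 48 genes in the model of all 18 samples, and each was larger in the Rptor line. These were 3 of 48 for Rptor minus Tfam and 2 of 48 for Rptor minus Cox10, where 4.82% and 3.27% of all genes had a larger effect in the Rptor line, and 11.2% and 7.48% differed in either direction. The counts lie close to the shares of all genes with a larger effect and below the shares in either direction. For Ctsd the effect exceeded that of the Tfam line by 0.56 on the log2 scale (limma adjusted p = 0.0106) and that of the Cox10 line by 0.53 on the same scale (limma adjusted p = 0.0165). Its log2 fold changes were 0.68 in the Rptor, 0.13 in the Tfam and 0.16 in the Cox10 line. The differences between the Rptor and Tfam lines for Ctsb, 0.46 (limma adjusted p = 0.0362), and Grn, 0.43 (limma adjusted p = 0.0368), passed in 5 and 4 of the 12 fits that left out a library of either line, and that for Grn also fell short with the level of Xist as covariate (0.41, adjusted p = 0.0537). The difference between the Rptor and Cox10 lines for Ctsl, 0.37 (limma adjusted p = 0.0496), passed in 3 of 12. The summed macrophage markers differed between deficient and control lungs by a ratio of 1.65 in the Rptor, 1.16 in the Tfam and 1.14 in the Cox10 line. In the same order the ratios were 1.84, 1.06 and 1.19 for mesenchyme, 1.30, 1.06 and 1.24 for endothelium and 0.43, 0.81 and 0.81 for epithelium. In the Cox10 line the macrophage sum was 6511 in the third deficient library, against 4806 and 4766 in the other deficient lungs. The part of these cell types in the differences was not tested.

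Lamp3 went opposite ways in Rptor and Tfam lungs, with log2 fold changes of -2.50 (limma adjusted p = 0.00199) and 0.52 (limma adjusted p = 0.0282). In the model of all 18 samples the Rptor effect was -3.02 (SE 0.57, limma adjusted p = 0.00308) relative to the Tfam effect and -2.71 (SE 0.57, limma adjusted p = 0.00742) relative to the Cox10 effect. Ctsc had -0.42 (limma adjusted p = 0.0208) and 0.37 (limma adjusted p = 0.00564), with a difference of -0.79 (SE 0.22, limma adjusted p = 0.0267). Its difference between the Rptor and Cox10 lines, -0.66 (SE 0.22, limma adjusted p = 0.0744), did not pass. The fall of Atp6v1c2 in Rptor lungs differed from its change in Tfam lungs by -2.52 (SE 0.47, limma adjusted p = 0.00277) and from that in Cox10 lungs by -2.35 (SE 0.47, limma adjusted p = 0.00493). For Cftr, lower in all 3 lines, these differences were -1.85 (SE 0.22, limma adjusted p = 6.54e-05) and -1.59 (SE 0.22, limma adjusted p = 0.000327). These 4 genes are not among the 48 and were singled out after their values were seen.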

How the results depend on the processing

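The count of 20 higher genes in the Rptor line was 18 to 20 under the other scalings, filters, pseudocounts and models, and 15 to 20 when each library was left out. The count of lower genes there, 1, was 2 with TMM scaling or a mean of at least 50 as filter (Npc2 and Atp6v1c1) and 3 with all 18 samples in 1 fit (also Atp6v0a2). In the Rptor line the replicate block, for which the study states no pairing, gave 2 lower genes (Npc2 and Atp6v0a2) and lost no call. Added for all 3 lines, it gave 9 instead of 3 differences between the Rptor and Tfam lines (15.9% of all genes). These were Ctsb, Ctsd, Ctsf, Hexa, Naglu, Psap, Grn, Gabarapl1 and Npc2, the last with a smaller effect in the Rptor line. In the Tfam and Cox10 lines samples of the same number did not always correlate most. The median log2 fold change of the Rptor line, 0.15, was 0.19 with the level of Xist, which female embryos express, as covariate and 0.13 to 0.18 without single libraries. In the Tfam line 1 gene was higher with all 18 samples in 1 fit, and 0 to 6 without single libraries; its median was 0.078 to 0.12. Counts in the Cox10 line were 0 under every alternative run, with a median of 0.03 to 0.12 without single libraries. Between the Rptor and Tfam lines 1 to 9 effects differed when a library was left out, and between the Rptor and Cox10 lines 0 to 11. The latter count, 2, was 1 with TMM scaling, library totals, no filter or the Xist covariate, in each of which Ctsl no longer passed (adjusted p = 0.0532 to 0.0587). With the Xist covariate the Grn difference between the Rptor and Tfam lines was lost too (adjusted p = 0.0537), which left 2. For the 57 single-gene values named by the rule, 880 alternatives were run, of which 816 kept their side of the threshold, 62 fell short of it, 2 newly passed and 0 reversed a call. Of the 816, 13 changed sign, all for values that passed in neither setting. These numbers leave out values outside the rule, some of which newly passed, among them Atp6v1c1 and Atp6v0a2 above, Atp6v0e in the Rptor line without deficient replicate 1 and Atp6v0b and Ctsf in the Tfam line without control replicate 3. Of the calls in the Rptor line, Fnip1 was lost with the Xist covariate (adjusted p = 0.0598), Neu1 with no filter (0.0517) or the Xist covariate (0.0715), and Naglu with no filter (0.0504) or all 18 samples in 1 fit (0.0639). The causes were not tested. The planned count-based tests (edgeR and DESeq2) were not run. Whole multiples of each sample's step were used to look for duplicate samples, but were not accepted as read counts for these tests. The median SE of a log2 fold change over the 48 genes was 0.071 in the Rptor line, which with 3 samples a group limits what smaller changes can show.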

Other observations

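The ATF4 response answers amino acid shortage and mitochondrial damage. In Tfam-deficient lungs 8 of 11 listed genes of it were higher (72.7%, against 2.03% of all genes), led by Chac1, which degrades glutathione, with 29.5, 29.3 and 28 in the control and 341, 347 and 307 in the deficient lungs (log2 fold change 3.47, SE 0.13, limma adjusted p = 3.3e-07). In Rptor-deficient lungs 2 of 11 were higher and 4 lower (18.2% and 36.4%, against 16.6% and 18.2% of all genes), among the lower genes the asparagine synthetase Asns with 1153, 1531 and 1461 in the control and 757, 870.5 and 819 in the deficient lungs (log2 fold change -0.75, SE 0.11, limma adjusted p = 0.00156). In Cox10-deficient lungs 1 of 11 was higher (Trib3; 9.09%, against 0.141% of all genes). Atf4 itself was also among the lower genes of the Rptor line. Sqstm1 and other autophagy genes are known to answer ATF4 as well. The log2 fold change of Sqstm1 was 0.40 for Rptor, 0.23 for Tfam and 0.14 for Cox10 (limma adjusted p = 0.00593, 0.147 and 0.505). The part of ATF4 in these values was not tested.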
